A study of Mus musculus with 10 samples.

Results

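The 36 genes described here are the transcription factor gene Myc, its partner Max and 34 genes whose products build ribosomes in the nucleolus. They were followed on 10 microarrays of mouse leukaemia cells. A gene was measured where a probe set carried its symbol alone in the platform annotation, and the probe set with the highest mean stood for the gene. That held for 33 of the 36, among 19938 genes measured in all. Npm3, Noc2l and Ppan had no such probe set and are not analysed here. All 33 passed the level filter, a mean log2 signal of at least 6.23 over the 10 arrays, which 15662 genes passed.

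The cells were acute myeloid leukaemia cells driven by MLL-AF9, a fusion of a histone methyltransferase with a transcription elongation factor, and c-Kit-positive cells were sorted before RNA was taken. All groups carried MLL-AF9 and Cre-ER, a Cre recombinase that works only when 4-hydroxytamoxifen (4-OHT) is bound. Lines 10949, 10950 and 10986 held the conditional allele of the X-linked transcription factor gene Zfx (Zfx fl/y, called fl lines), and lines 10977 and 10980 the wild-type allele (wt/y, called wt lines). The 4 groups were fl lines with 10 nM 4-OHT, in which deletion of Zfx was induced per the labels (3 arrays), fl lines with ethanol vehicle (3 arrays), wt lines with 4-OHT (2 arrays) and wt lines with vehicle (2 arrays). Culture with or without 4-OHT lasted 72 h. All groups grew in 20% serum with SCF, the ligand of c-Kit, at 20 ng/mL and with 10 ng/mL of the cytokines IL-6 and IL-3. The lines came from independent primary leukaemias of moribund mice. The labels and the design text state neither the promoter of Cre-ER, nor the ages of the mice, nor the number of clones in a line. Values of the fl lines are given below in the order 10949, 10950 and 10986, and values of the wt lines in the order 10977 and 10980.

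MYC pairs with MAX, and the pair binds a short DNA sequence called the E-box at the promoters of growth genes. Genes for ribosome building are among its best known targets. RNA polymerase I copies the ribosomal RNA genes in the nucleolus, small nucleolar ribonucleoproteins (snoRNPs) modify the transcript, and assembly factors cut and fold it into a small and a large ribosomal subunit. Dividing blood progenitors and leukaemia cells make many ribosomes, and output declines as myeloid cells mature.

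The E-box is shown here because it is the sequence that MYC and MAX read. Promoter windows from RefSeq (GRCm38.p6, 250 bases before to 50 after each annotated start) were at hand for 26 of the 33 measured genes. Myc, Npm1, Fbl, Bop1, Rrs1, Rrp12 and Tcof1 had no window and were not searched. The letters CACGTG, which read the same on both strands, occurred in the window of 6 of these 26 genes (23.1%), against 1311 of 12385 genes tested (10.6%). The 6 were Max, Mybbp1a, Utp20, Wdr43, Nop2 and Pes1. Each is given as 30 bases, 5′ to 3′ in the direction of transcription, with the E-box in capitals.
Max, chr12:76962234-76962263, minus strand: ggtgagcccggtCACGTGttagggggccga
Mybbp1a, chr11:72441347-72441376, plus strand: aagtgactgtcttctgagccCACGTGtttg
Utp20, chr10:88826765-88826794, minus strand: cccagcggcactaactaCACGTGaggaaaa
Wdr43, chr17:71616220-71616249, plus strand: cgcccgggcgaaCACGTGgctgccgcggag
Nop2, chr6:125131811-125131840, plus strand: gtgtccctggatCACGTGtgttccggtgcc
Pes1, chr11:3963965-3963994, plus strand: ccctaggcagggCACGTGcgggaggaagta
The E-box began 60 bases before the start in Nop2 and 3 bases before it in Max, and after the start in the other 4. Among 194 other genes of the pathway lists described below, 46 (23.7%) held the same letters. The variant E-box CACGCG, on either strand, occurred in 9 of the 26 (34.6%), against 17.1% of genes tested. The letters AGGCCT, the core of the motif known for Zfx and the same on both strands, occurred in the window of 1 gene, Ubtf (3.8%), against 12.2% of genes tested. These are matches of letters, and binding was not measured.

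Some facts of the series bear on what follows. The fl vehicle array of line 10986 stood apart, at 49.42 on the principal component with 47.2% of the variance, against -20.41 to 22.99 on the other 9 arrays, so values that moved most without line 10986 are also given without it. The probe set of Zfx read 10.07, 9.98 and 10.02 on the fl 4-OHT arrays, against 10.09, 9.63 and 9.24 on the fl vehicle arrays, and 9.90 and 10.04 on the wt 4-OHT arrays, against 10.12 and 10.07 on the wt vehicle arrays. The sources do not state where its probes lie relative to the deleted part, so it checks neither the deletion nor the labels. All 12 progenitor markers, Kit, Cd34, Mpo and Hoxa9 among them, passed the level filter. Of 11 measured lymphoid markers, 5 (Cd3d, Cd79a, Ms4a1, Ncr1 and Il7r) lay below it on all 10 arrays, but 5 others passed, Cd3e among them. So did 7 of 8 measured erythroid and megakaryocyte markers and all 8 mast cell and basophil markers. Passing the filter thus does not show that a cell type was present. Monocyte and macrophage markers (15 of 16 measured) had a summed log2 level of 14.09 to 14.86 on fl 4-OHT arrays, against 13.57 to 14.13 on fl vehicle arrays, and 13.37 to 14.28 on wt 4-OHT arrays, against 13.83 to 13.96 on wt vehicle arrays. Late granulocyte markers (12 of 12 measured) stood at 12.94 to 14.0 on fl 4-OHT arrays, against 12.52 to 13.28 on fl vehicle arrays, and 12.59 to 14.63 on wt 4-OHT arrays, against 13.3 to 14.36 on wt vehicle arrays. In the fl lines 3 monocyte and 1 late granulocyte marker passed the test described below, all higher with 4-OHT. The part of maturing cells in the values below was not tested, and fewer cells of a type and less RNA per cell cannot be told apart in such samples.

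In the fl lines, the Myc signal was lower with 4-OHT than with vehicle in every line, while the genes for ribosome building went both ways. Myc averaged 0.716 times its vehicle level, Heatr1 and Polr1b averaged 1.32 and 1.30 times theirs, and nucleolin and nucleophosmin differed little. None of the 33 genes passed the test (limma, all 15662 genes adjusted together, adjusted p threshold 0.05), and 0.153% of all genes tested did. At an unadjusted p under 0.05 there were 5 of the 33 (15.2%), against 12.3% of all genes: Heatr1, Polr1b, Utp20, Myc and Fbl. The smallest adjusted p among them was 0.175. The median change of the 33 genes was 0.06 on the log2 scale, with 18 higher and 15 lower, against a median of -0.00 for all genes. Without line 10986 the median of the 33 was -0.04.

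Myc stood at 11.50, 11.90 and 11.38 on the fl 4-OHT arrays, against 11.77, 12.22 and 12.24 on the fl vehicle arrays (log2 signal). The groups overlapped, since line 10950 with 4-OHT lay above line 10949 with vehicle. In the wt lines it stood at 11.83 and 12.35 with 4-OHT, against 11.95 and 11.82 with vehicle, so one wt line was lower and the other higher. The change was -0.48 in the fl lines (SE 0.17, n = 3 line pairs, limma adjusted p = 0.318), and -0.27, -0.31 and -0.86 in the single lines. Without line 10986 it was -0.29 (limma adjusted p = 0.355, and 0.287 to 0.67 over all alternatives run). In the wt lines the change was 0.21 (SE 0.21, n = 2 line pairs, limma adjusted p = 1), from -0.12 and 0.54. The 4-OHT change in fl lines minus that in wt lines was -0.69 (SE 0.27, limma adjusted p = 0.824).

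Max, the partner that MYC needs to bind DNA, went the other way in part. On the fl 4-OHT arrays it stood at 10.78, 10.42 and 10.74, against 10.46, 10.45 and 10.15 on the fl vehicle arrays. Lines 10949 and 10986 were higher with 4-OHT and line 10950 was nearly level, at -0.03. The mean change was 0.29 (SE 0.13, n = 3 line pairs, limma adjusted p = 0.451), and 0.14 without line 10986. In the wt lines Max stood at 10.45 and 10.63 with 4-OHT, against 10.58 and 10.67 with vehicle.

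**Figure D1:**
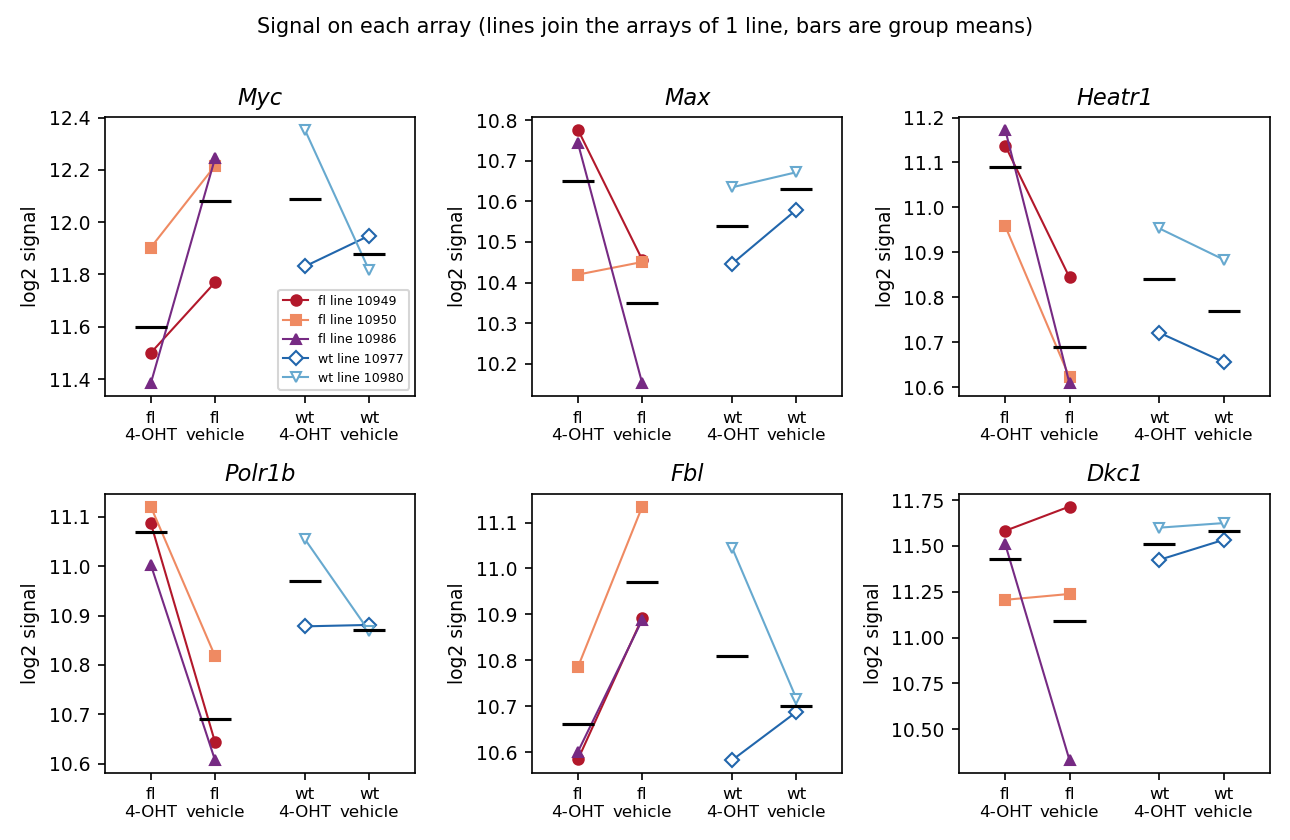
Log2 signal (y axis) of Myc, Max, Heatr1, Polr1b, Fbl and Dkc1 on each array, by group (x axis), with a line joining the 2 arrays of each cell line and a bar at each group mean. Myc slopes up towards vehicle in all 3 fl lines, Heatr1 and Polr1b slope down in all 3, and Dkc1 moves by a wide step in line 10986 only, whose vehicle array reads 10.33.

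Of 6 genes for the transcription of ribosomal RNA genes, 4 were higher with 4-OHT in all 3 fl lines and 1 was lower in all 3. Over all genes tested, 14.6% were higher and 14.5% lower in every fl line pair. Polr1b, the second-largest subunit of RNA polymerase I, stood at 11.09, 11.12 and 11.00 on the fl 4-OHT arrays, against 10.64, 10.82 and 10.61 on the fl vehicle arrays. The groups did not overlap, which held for 5 of the 33 genes and 11.8% of all genes. Its change was 0.38 (SE 0.10, n = 3 line pairs, limma adjusted p = 0.176), and it lay between 0.30 and 0.44 in the single lines. In the wt lines Polr1b stood at 10.88 and 11.05 with 4-OHT, against 10.88 and 10.87 with vehicle.

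Polr1a, the largest subunit of the same polymerase, changed by 0.12, 0.07 and 0.10 in the fl lines, and Ubtf, which binds the promoter of the ribosomal RNA genes, by 0.05, 0.03 and 0.04. The RNA helicase gene Ddx21 changed by 0.31, 0.02 and 0.46. These steps were small beside that of Polr1b, except for Ddx21, whose 4-OHT arrays all read above its vehicle arrays. Tcof1, whose product treacle supports this transcription, stood at 9.38, 9.77 and 9.56 on the fl 4-OHT arrays, against 9.41, 9.65 and 9.89 on the fl vehicle arrays. Its wt arrays read 9.57 and 10.09 with 4-OHT, against 9.53 and 9.58 with vehicle, and the 4-OHT array of line 10980 had its highest level.

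Mybbp1a encodes a nucleolar MYB-binding protein that acts on ribosomal RNA synthesis and processing. With 4-OHT the fl arrays read 10.35, 10.77 and 10.53, against 10.36, 10.97 and 10.92 with vehicle, lower in every line but by only 0.01 in line 10949. The wt arrays read 10.76 and 11.00 with 4-OHT, against 10.55 and 10.66 with vehicle, higher in both lines. Its change was -0.20 in the fl lines (SE 0.11, limma adjusted p = 0.542), and -0.11 without line 10986, and 0.27 in the wt lines (SE 0.13, limma adjusted p = 1).

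Nucleolar scaffold and chaperone genes showed no shared direction. Ncl (nucleolin) and Npm1 (nucleophosmin, a chaperone whose gene is often mutated in human leukaemia) changed by -0.01 and -0.05 in the fl lines, with single lines between -0.25 and 0.18. Nolc1, a chaperone of snoRNPs, changed by -0.00. The annotation pairs other Npm1 probe sets with the symbol Gm15484, so a near-identical copy may add to the signal of this gene. Gnl3, the nucleolar GTPase nucleostemin, stood at 11.41, 11.19 and 11.31 on the fl 4-OHT arrays, against 11.45, 11.35 and 10.70 on the fl vehicle arrays. Its wt arrays read 11.02 and 11.53 with 4-OHT, against 11.25 and 11.33 with vehicle. The fl change of 0.14 (SE 0.17, limma adjusted p = 0.898) came from line 10986 alone, and it was -0.10 without that line.

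Box C/D snoRNPs add methyl groups to ribosomal RNA. Fbl, their methyltransferase fibrillarin, read 10.58, 10.79 and 10.60 on the fl 4-OHT arrays, against 10.89, 11.13 and 10.89 on the fl vehicle arrays, and these groups did not overlap. The wt arrays read 10.58 and 11.04 with 4-OHT, against 10.69 and 10.72 with vehicle. The fl change was -0.31 (SE 0.11, n = 3 line pairs, limma adjusted p = 0.319). This value depends on the probe set: a dimmer one for Fbl changed by -0.12, 0.42 and -0.10 in the fl lines, and with the mean of both the change was -0.12. Fbl lies on chromosome 7, but most probe sets numbered next to the brighter one belong to genes of chromosome 17, so that probe set may read a copy of the gene.

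The other core proteins of the same particle behaved otherwise. Nop56 changed by 0.00, -0.12 and 0.11 in the fl lines. Nop58 stood at 11.41, 10.89 and 11.17 on the fl 4-OHT arrays, against 11.37, 11.07 and 10.26 on the fl vehicle arrays, and only line 10986 moved by more than 0.2. Nop58 in the wt lines read 10.98 and 11.14 with 4-OHT, against 11.20 and 11.19 with vehicle. Its fl change was 0.26 (SE 0.20, limma adjusted p = 0.721), and -0.07 without line 10986.

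Box H/ACA snoRNPs turn uridine into pseudouridine. Dkc1, the pseudouridine synthase, read 11.58, 11.21 and 11.51 on the fl 4-OHT arrays, against 11.72, 11.24 and 10.33 on the fl vehicle arrays. The wt arrays read 11.42 and 11.60 with 4-OHT, against 11.53 and 11.62 with vehicle. The vehicle array of line 10986 lay far below the other 9 arrays, which lay between 11.21 and 11.72. The fl change of 0.34 (SE 0.25, limma adjusted p = 0.69) was -0.08 without line 10986. Gar1, another protein of this particle, read 10.32, 10.46 and 10.24 with 4-OHT, against 10.52, 10.33 and 10.47 with vehicle in the fl lines, and 10.11 and 10.59, against 10.06 and 10.24, in the wt lines. Nhp2 and Nop10, also proteins of this particle, changed by -0.06 and 0.14 in the fl lines. Without line 10986 these were -0.21 and -0.05.

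Among 6 genes of small subunit processing, 2 were higher with 4-OHT in every fl line and 2 lower. Heatr1, the counterpart of a yeast protein of the small subunit processome, had the largest mean change of all 33 genes upward. It stood at 11.14, 10.96 and 11.17 on the fl 4-OHT arrays, against 10.84, 10.62 and 10.61 on the fl vehicle arrays. No fl 4-OHT array lay as low as a fl vehicle array. The single fl lines changed by 0.29, 0.34 and 0.56, with the widest step in line 10986. The wt arrays read 10.72 and 10.95 with 4-OHT, against 10.66 and 10.88 with vehicle. Its change was 0.40 (SE 0.10, n = 3 line pairs, limma adjusted p = 0.175) in the fl lines and 0.07 (SE 0.12, n = 2 line pairs, limma adjusted p = 1) in the wt lines. The difference between these changes was 0.33 (SE 0.16, limma adjusted p = 0.875).

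Utp20, a large scaffold of the same processome, read 10.15, 9.99 and 10.05 on the fl 4-OHT arrays, against 9.88, 9.91 and 9.48 on the fl vehicle arrays, again without overlap. The wt arrays read 9.94 and 10.25 with 4-OHT, against 9.97 and 10.18 with vehicle. The fl change was 0.31 (SE 0.12, limma adjusted p = 0.365), and 0.17 without line 10986. Noc4l, which acts in early processing, read 10.06, 10.14 and 10.07 with 4-OHT, against 10.06, 10.31 and 10.25 with vehicle in the fl lines, and 10.04 and 10.32, against 10.06 and 10.15, in the wt lines. Its fl change of -0.12 (SE 0.10) was lower in all 3 lines, though by less than 0.01 in line 10949. Rrp12, needed for export of subunits, changed by -0.14, -0.09 and -0.06 in the fl lines, and Rrp9, a protein of the U3 snoRNP, and Wdr43, a processome protein, by -0.07 and 0.23 on average. Without line 10986 Rrp9 changed by -0.20 and Wdr43 by 0.03.

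Among 8 measured genes of large subunit assembly, 6 had a higher mean with 4-OHT in the fl lines, and 2 of these, Pes1 and Nop16, were higher in every line. Pes1, Bop1 and Wdr12 encode the 3 proteins of the PeBoW complex, which matures the large subunit. Their signals moved apart in line 10986. On the probe sets used they changed by at most 0.19 in lines 10949 and 10950. Pes1 stood at 10.26, 9.99 and 10.20 on the fl 4-OHT arrays, against 10.17, 9.92 and 9.44 on the fl vehicle arrays. Its wt arrays read 10.11 and 10.32 with 4-OHT, against 10.16 and 10.36 with vehicle. The fl change was 0.30 (SE 0.15, limma adjusted p = 0.505), and 0.07 without line 10986.

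Wdr12 read 11.29, 10.95 and 11.14 with 4-OHT, against 11.31, 10.93 and 10.29 with vehicle in the fl lines, and 11.05 and 11.52, against 11.16 and 11.41, in the wt lines. The step again belonged to line 10986, at 0.85, with -0.02 and 0.02 in the other fl lines. Wdr12 lies on chromosome 1, but the probe sets numbered next to the one used belong to chromosome 7, and a dimmer probe set changed by -0.20, -0.26 and 1.29. Bop1 read 10.53, 10.83 and 10.67 with 4-OHT, against 10.35, 10.83 and 10.95 with vehicle in the fl lines, and 10.39 and 10.54, against 10.48 and 10.21, in the wt lines. In line 10986 Bop1 was thus lower with 4-OHT, by 0.29, where Pes1 and Wdr12 were higher.

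Rrs1, an assembly factor for the large subunit, read 7.83, 8.51 and 8.29 on the fl 4-OHT arrays, against 7.80, 8.99 and 8.75 on the fl vehicle arrays. The wt arrays read 8.42 and 8.21 with 4-OHT, against 8.17 and 7.92 with vehicle, so that both wt lines were higher and 2 of 3 fl lines lower. Its change was -0.30 in the fl lines (SE 0.13, limma adjusted p = 0.405), and -0.47 without line 10949, and 0.27 in the wt lines (SE 0.16, limma adjusted p = 1), a difference of -0.57 (SE 0.20, limma adjusted p = 0.778). Nip7, a factor of ribosomal RNA maturation, read 9.75, 9.30 and 9.63 with 4-OHT, against 10.05, 9.67 and 8.75 with vehicle in the fl lines, and 9.23 and 9.60, against 9.56 and 9.65, in the wt lines. It was lower in 4 of the 5 lines and higher by 0.87 in line 10986, and its fl change was 0.07 with that line and -0.34 without it (limma adjusted p = 0.139, the lowest of its alternatives, which reached 1). Nop2, an RNA methyltransferase, Nop16 and Rrp1b changed by 0.06, 0.10 and 0.08 on average in the fl lines, and by 0.0038 to 0.18 with 1 fl line left out.

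**Figure D2:**
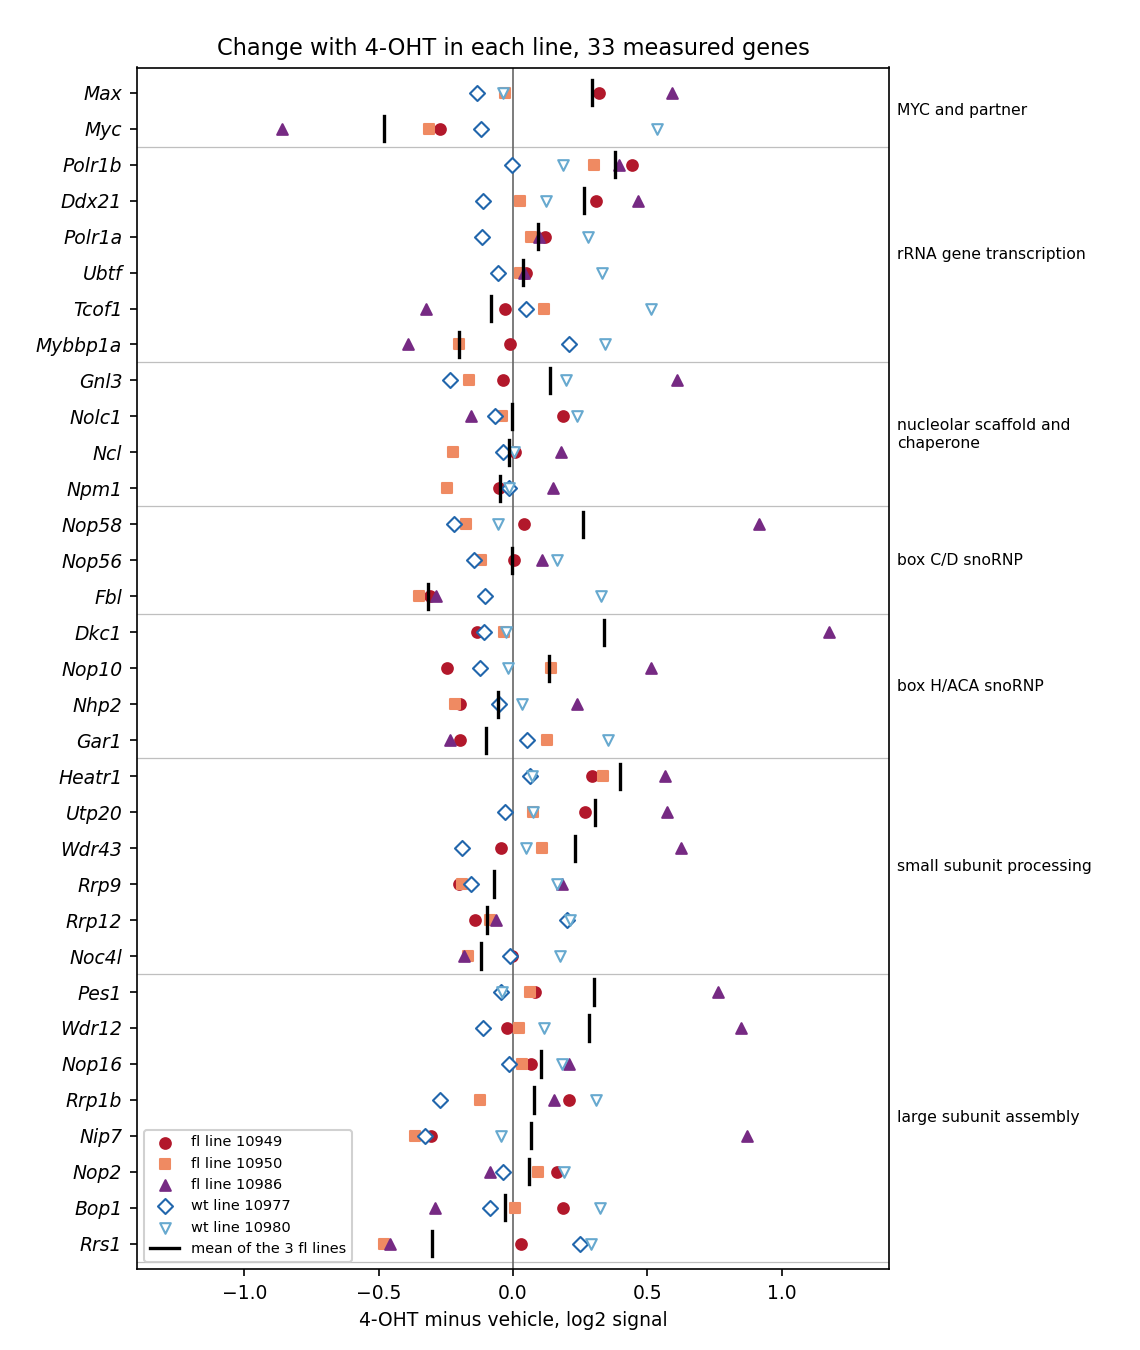
Change with 4-OHT (4-OHT minus vehicle, log2 signal, x axis) of the 33 measured genes (rows, grouped by role), with 1 point per line and a black bar at the mean of the 3 fl lines. Filled points of fl line 10986 lie far to the right for Dkc1 (1.18), Nop58 (0.91), Nip7 (0.87) and Wdr12 (0.85) and far to the left for Myc (-0.86), while Heatr1 and Polr1b have all 3 filled points on the right.

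Line 10986 carried the widest changes. In it 11 of the 33 genes were higher with 4-OHT by at least 0.5 on the log2 scale and 1 gene, Myc, was lower by as much, and no gene changed that far in lines 10949 and 10950. Together these were 36.36% of the 33 genes, against 25.09% of all genes in the same line. Its vehicle array had the lowest of the 10 signals for 16 of the 33 genes (48.5%), against 26.1% of all genes. The genes lowest on that array included Dkc1, Nop58, Wdr12, Nip7, Pes1, Gnl3 and Wdr43, while Myc had its second-highest signal there. Heatr1, Polr1b, Utp20, Ddx21 and Max, whose fl means were higher with 4-OHT, also had their lowest signal on that array. With quantile normalization 5 genes were higher and 4 lower by at least 0.5 in this line, so the split there depends on the scaling.

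**Figure D3:**
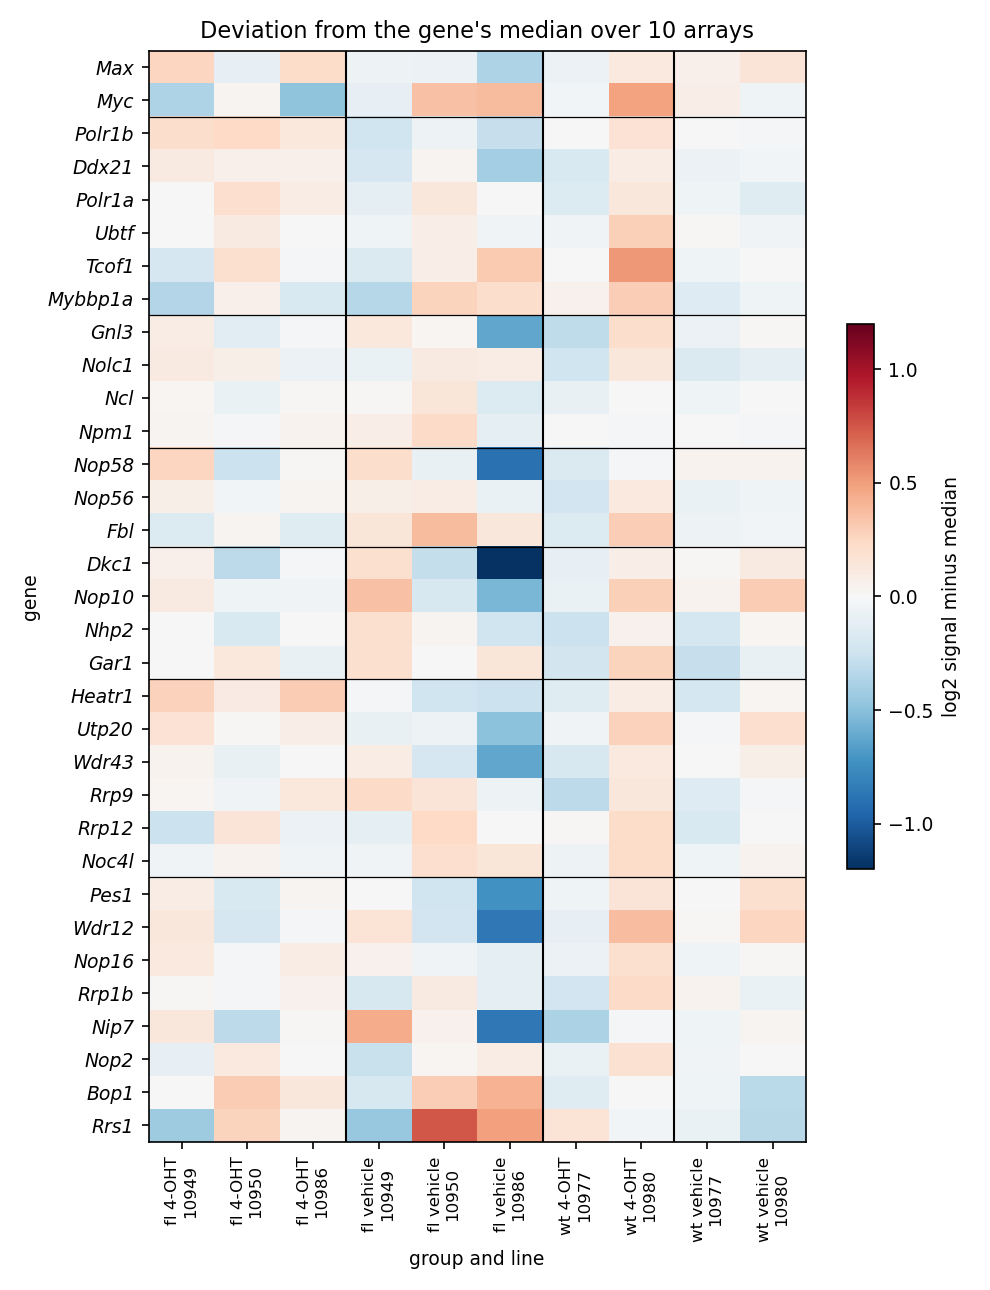
Log2 signal of each of the 33 genes (rows) on each of the 10 arrays (columns, by group and line), shown as the deviation from that gene's median over the arrays (red higher, blue lower). The vehicle array of fl line 10986 holds the deepest blue cells, down to -1.19 for Dkc1, and the 4-OHT array of wt line 10980 is red in most rows.

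In the wt lines Zfx cannot be excised when 4-OHT is added, and there the genes went opposite ways in the 2 lines. With 1 array per line and treatment, effects of 4-OHT or active Cre cannot be told apart from variation between cultures or arrays. In line 10980 26 of the 33 genes (78.8%) were higher with 4-OHT, with a median change of 0.18, against 49.1% of all genes. In line 10977 6 of the 33 (18.2%) were higher, with a median of -0.07, against 50.8% of all genes. Centring the arrays on their median gave 29 and 6 of 33, against 57.9% and 43.5% of all genes. Quantile normalization gave 27 and 8 of 33, against 53.8% and 51.7% of all genes. The Myc signal was 0.54 higher in line 10980 and 0.12 lower in line 10977.

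None of the 33 genes passed in the wt lines (limma), none had an unadjusted p under 0.05, and the share of all genes that passed was 0%. At an unadjusted p under 0.05 there were 23 of all genes (0.147%), so few that the lack of calls does not show an absence of change. The median change of the 33 genes was 0.02, with 22 higher and 11 lower, but this mean joins lines that moved apart. Both lines were higher for 6 genes and lower for 7, against 24.3% and 24.5% of all genes. In 4 of the 33 (12.1%) the wt 4-OHT and vehicle arrays did not overlap, against 26.7% of all genes: Mybbp1a, Rrp12 and Rrs1 above and Nop58 below. The largest changes shared by both lines were those of Tcof1 (0.28, SE 0.17) and Mybbp1a (0.27) upward and of Nip7 (-0.19, SE 0.30) and Nop58 (-0.14, SE 0.25) downward, each with limma adjusted p = 1. The fit gives each gene 1 spread for fl and wt lines together, so these SEs also carry the spread of the fl lines. Nip7 changed by -0.33 and -0.05 in the wt lines, against 0.87 in fl line 10986. Nop58 changed by -0.22 and -0.06, against 0.91 in line 10986. In 3 of the 33 genes, Mybbp1a, Rrp12 and Pes1, every fl line moved one way and both wt lines the other, as did 8.07% of all genes. Of the 10 arrays, the 4-OHT array of line 10980 had the highest signal for 15 of the 33 genes (45.5%), against 10.6% of all genes.

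The 4-OHT change of the fl lines minus that of the wt lines had a median of 0.00 over the 33 genes, with 17 above 0 and 16 below. This balance turned with the wt line: the median was -0.09 without line 10977, with 12 above 0 and 21 below, and 0.12 without line 10980, with 23 above and 10 below. No gene of the 33 passed (limma), and 0% of all genes did. At an unadjusted p under 0.05 there were 4 of the 33 (12.1%), against 5.82% of all genes. That count was 0 without the replicate block and 0 without line 10980, 1 with a random block and 1 without line 10950, and at most 5 under any alternative run. All 4, Myc, Rrs1, Mybbp1a and Fbl, had a lower value in the fl lines than in the wt lines. Their differences were -0.69, -0.57, -0.48 and -0.43, with adjusted p between 0.778 and 0.857. Without line 10980 the differences of Myc and Fbl were -0.36 and -0.21. Fbl is counted here from its brighter probe set, which may read a copy of the gene. With the mean of a gene's probe sets the count under 0.05 was 3. The wt lines' own spread, such as 0.65 between the Myc changes of the 2 lines, is in the standard errors of these differences, which pool fl and wt lines.

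Between genotypes under 4-OHT, where fl cells are labelled as deleted and wt cells are not, none of the 33 genes passed (limma), against 0.645% of all genes, and none had an unadjusted p under 0.05, against 10.8% of all genes, with at most 2 under any alternative run. Myc had the largest difference, at 11.6 ± 0.273 on fl 4-OHT arrays (SD, n = 3) and 12.09 ± 0.369 on wt 4-OHT arrays (SD, n = 2), a difference of -0.50 (SE 0.22, limma adjusted p = 0.467). It was -0.76 without line 10977 and -0.24 without line 10980. The ranges overlapped, since fl line 10950 at 11.90 lay above wt line 10977 at 11.83. Only Heatr1 did not overlap, with all fl 4-OHT arrays above both wt 4-OHT arrays, a difference of 0.25 (SE 0.13, limma adjusted p = 0.57), which was 0.14 without line 10977. Of all genes 26.8% did not overlap. The median difference of the 33 genes was 0.01, and -0.02 with arrays centred on their median. It joined wt lines that lay on either side: it was -0.13 without line 10977, with 6 genes higher and 27 lower, and 0.13 without line 10980, with 28 higher and 5 lower.

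Under vehicle, where Cre was not induced, none of the 33 genes passed either (limma), against 0.0192% of all genes, and none had an unadjusted p under 0.05, against 9.83% of all genes. The count was 8 without line 10949 (smallest limma adjusted p 0.0938), where 4121 of all 15662 genes had an unadjusted p under 0.05. It was 3 after quantile normalization, where 1524 of all genes had one. With both wt lines kept, it was 0 under the other alternatives run. Fl signals lay above wt signals on all arrays for 3 genes (Fbl, Gar1 and Nolc1) and below on all arrays for 3 genes (Max, Polr1b and Utp20), and 30.7% of all genes did not overlap. The largest differences upward were Rrs1 at 0.47 (SE 0.31), Bop1 at 0.36 (SE 0.18) and Gar1 at 0.29 (SE 0.15). The largest downward were Dkc1 at -0.48 (SE 0.33), Wdr12 at -0.44 (SE 0.27) and Pes1 at -0.41 (SE 0.20), and their fl means include the low vehicle array of line 10986. Without that line they were -0.10, -0.17 and -0.21. With 1 line left out the upward differences ranged between 0.23 and 0.83 for Rrs1, 0.23 and 0.55 for Bop1 and 0.20 and 0.39 for Gar1. Adjusted p for these 6 genes lay between 0.519 and 0.542 (limma). Polr1b, higher with 4-OHT in the fl lines, averaged 10.69 ± 0.113 on fl vehicle arrays (SD, n = 3), against 10.87 ± 0.00919 on wt vehicle arrays (SD, n = 2). This comparison shares its vehicle arrays with the 4-OHT changes above.

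The wider pathway was followed through 7 lists of 232 other genes, of which 217 passed the level filter. None passed in either direction in the fl lines, in the wt lines or between genotypes (limma, the same percentages of all genes as above). At an unadjusted p under 0.05 the fl lines had 1 of 23 genes of the MYC network, 4 of 37 other MYC targets and 3 of 15 factors of RNA polymerase I. They also had 7 of 53 small subunit factors, 3 of 52 large subunit factors, 2 of 10 snoRNP assembly factors and 1 of 27 genes of the RNA exosome and trimming. Of all genes tested, 12.3% had such a p.

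The MYC network list, with partners and antagonists of MYC and MAX among its genes, had a median change of -0.01 in the fl lines. Its smallest p belonged to Mlxip, whose product pairs with the MAX-like protein MLX, with changes of -0.10, -0.43 and -0.34. The kinase gene Pim1 followed with -0.35, 0.03 and -0.80. Among other MYC targets, the cyclin gene Ccnd2 was higher in every fl line, by 0.57, 0.47 and 0.73 (mean 0.59, SE 0.11, limma adjusted p = 0.114), with -0.12 and 0.25 in the wt lines. Shmt2, a mitochondrial enzyme of one-carbon metabolism, was lower in every fl line, by 0.40, 0.27 and 0.38, with -0.14 and 0.37 in the wt lines. The other MYC targets included genes of either direction, as did the 33 genes, but more were higher: 26 of 37 on average in the fl lines, with 11 lower. In every fl line pair 9 were higher (24.3%) and 3 lower (8.1%). The shares were 24.2% and 15.2% for the 33 genes, and 14.6% and 14.5% for all genes. By line, 48.6%, 56.8% and 81.1% of this list were higher in 10949, 10950 and 10986, and 24.3% and 70.3% in wt lines 10977 and 10980.

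Polr1e, another RNA polymerase I subunit, changed by 0.37, 0.40 and 1.14 in the fl lines (mean 0.64, SE 0.16, limma adjusted p = 0.181) and by -0.23 and -0.14 in the wt lines. Kdm2b, a histone demethylase found in the nucleolus, changed by -0.25, -0.56 and -0.35 in the fl lines. The small subunit factor Utp4 changed by 0.51, 0.30 and 1.10 (mean 0.63, SE 0.16, limma adjusted p = 0.175), and Wdr36 by 0.50 on average. Of the large subunit list, Zfp622 changed by 0.22, 0.39 and 0.26 and the GTPase gene Lsg1 by 0.10, 0.20 and 0.60. Shq1 and Nufip1, which assemble H/ACA and C/D particles, had mean changes of 0.41 and 0.32, and Pop1, a protein of RNase P and MRP, and the exonuclease gene Eri1 both had 0.42. None of these genes passed, and most had their widest step in line 10986.

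By line, the small subunit, large subunit and exosome lists had 86.8%, 88.5% and 92.6% of genes higher with 4-OHT in line 10986. Line 10949 had 43.4%, 55.8% and 37.0%, and line 10950 had 41.5%, 40.4% and 25.9%. In wt line 10977 the shares were 20.8%, 26.9% and 7.4%. In line 10980 they were 49.1%, 63.5% and 44.4%, so the excess of higher genes seen there for the 33 genes was not matched in each list. Over all genes the shares were 47.4%, 57.5% and 45.5% in the fl lines 10949, 10950 and 10986, and 50.8% and 49.1% in the wt lines 10977 and 10980.

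**Figure D4:**
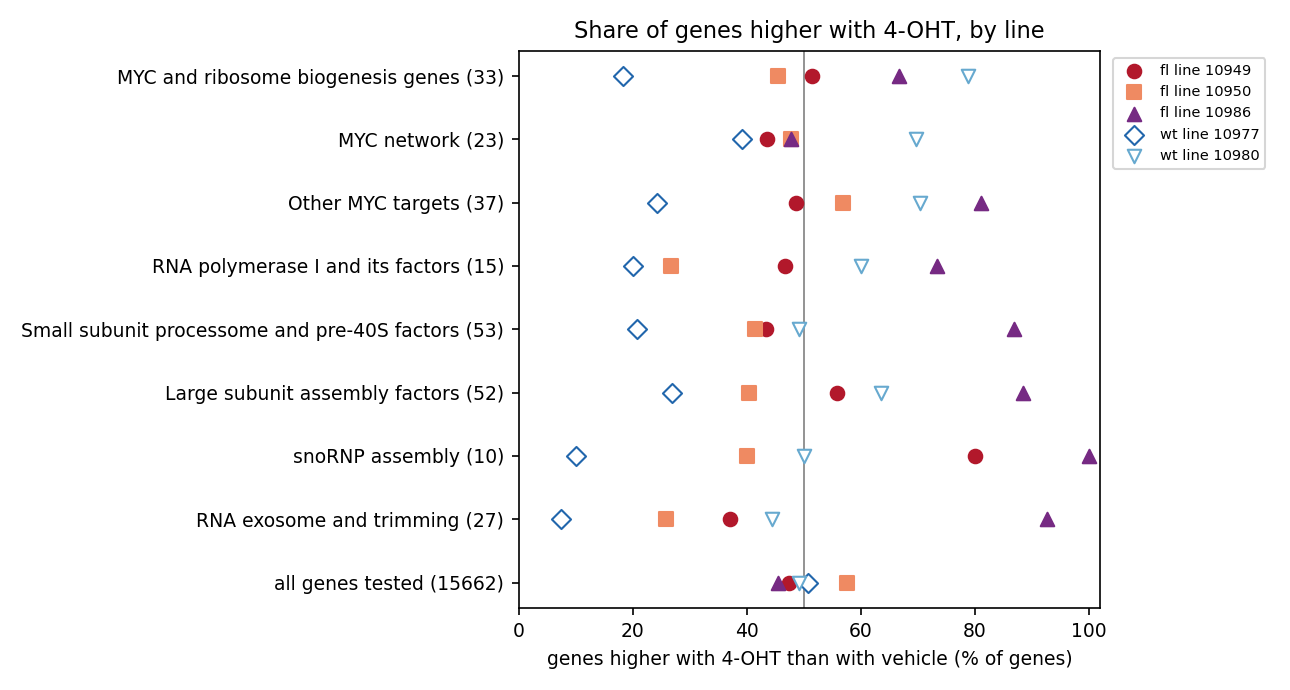
Share of genes higher with 4-OHT than with vehicle (x axis, percent of the genes in a list) for the 33 measured genes, 7 wider pathway lists and all genes tested (rows, number of genes in brackets), with 1 point per line. Wt line 10977 lies lowest in every list, at 18.2% for the 33 genes, wt line 10980 lies highest for them at 78.8%, and all genes lie between 45.5% and 57.5%.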

How the data were processed

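Biotin-labelled RNA was hybridised to 1-colour arrays, 1 for each line and treatment. The deposited intensity values, 1 per probe set and array on a linear scale, were made by the authors with RMA, per the submitters' processing notes. The sources used here do not give its software or version. Next, log2 of the intensity was taken. Of 35556 probe sets, 21789 had 1 gene symbol and 1621 several, and 12146 are unnamed here. Genes whose mean reached the 25th percentile of the probe sets were tested.

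The 4-OHT changes were fitted with limma (version 3.58.1, R 4.3.3) over the 10 arrays, with a fixed block for the line and separate 4-OHT terms for fl and wt lines. Each gene had 1 residual spread, estimated from fl and wt lines together, so the SE of a wt change is not that of the wt lines alone. Tests were two-sided, with Benjamini-Hochberg adjustment over 15662 genes. For the comparison of genotypes the line was a random block (statmod 1.5.0 gave a correlation of 0.165). The pairing comes from the design text, where every line was cultured both ways. Deviations from the group means, set against each other for the arrays of one line, gave a correlation of 0.782 for 10949, 0.224 for 10950, -0.0641 for 10986 and 0.427 for both wt lines. The wt lines share 1 value by construction, since each wt group had 2 arrays, whose deviations mirror each other. The fit of the 4-OHT change in the fl lines was tested on simulated data. The number of arrays limits the precision. Replicates are separate lines.

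The genes, lists and naming rule were chosen with earlier results of these data known. Array values were given for Myc and Max, the 4 largest changes each way shared by all fl pairs, the 2 each way shared by both wt pairs, the 3 largest genotype differences each way under vehicle, and the largest fl change of each role. In each pathway list the 2 genes with the smallest p were named. Zfx was given as the targeted gene. Rrp12 falls outside the rule, and its array values were added after they were seen.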

Additional observations from a re-analysis of the deposited data

Results flagged for a closer look

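In 3 of the 33 genes every fl line moved one way with 4-OHT and both wt lines the other way, a pattern that 8.07% of all genes tested also showed. The 4-OHT change in fl lines minus that in wt lines was -0.476 for Mybbp1a, -0.3038 for Rrp12 and 0.3452 for Pes1. The test of that difference did not pass for any of them (limma adjusted p = 0.788, 0.875 and 0.918). Rrp12 read 8.61, 9.02 and 8.80 on the fl 4-OHT arrays, against 8.75, 9.11 and 8.86 on the fl vehicle arrays, and 8.88 and 9.09 on the wt 4-OHT arrays, against 8.68 and 8.87 on the wt vehicle arrays. Both wt lines were higher by about the same step, 0.20 and 0.21. Pes1 had wt changes of -0.04 in both lines, and its fl change rested mostly on line 10986, without which the difference was 0.12.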

How the results depend on the processing

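None of the 33 genes passed in any of the 5 comparisons under any alternative run. The count of all genes called in the fl lines was 24, against 28 without the replicate block, 83 with a random block, 8 without the level filter, 14 with a filter at the 50th percentile, 3 with arrays centred on their median and 61 after quantile normalization. With 1 line left out it was 0 to 440: 440 without line 10986 and 0 without any other line. The difference of the 4-OHT change had 0 genes called, against 1 without the block, 1 with a random block, 1 with neither the block nor the 10986 vehicle array, and 0 to 20 with 1 line left out (20 without 10986). Between genotypes under 4-OHT there were 101, against 66 with centred arrays and 0 to 51 with 1 line left out. Under vehicle there were 3, against 0 with no filter, with the 50th percentile and after quantile normalization, and 0 to 15 with 1 line left out. The causes were not tested.

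With 1 line left out the fl change was -0.082 to 0.57 for Dkc1 and -0.10 to 0.29 for Gnl3, negative only without line 10986. With neither the block nor that line's vehicle array these were -0.044 and -0.097. Without line 10986 the fl changes of Nop58, Nop10, Wdr12 and Nip7 also turned negative, and those of Tcof1, Bop1 and Nolc1 positive. The wt change of Myc was -0.12 without line 10980 and 0.54 without line 10977, and among genes given array by array the wt changes of Polr1b, Fbl, Utp20, Noc4l, Bop1 and Wdr12 were also negative without 10980. The small number of lines limits these values.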
